A study of Mus musculus with 8 samples.

Results

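The BAFF, APRIL and lymphotoxin axis was followed in whole lungs as 7 genes taken by symbol from the 54532 genes of the count table. These were the ligands Tnfsf13b (BAFF), Tnfsf13 (APRIL), Lta and Ltb, and the receptors Tnfrsf13b (TACI), Tnfrsf13c (BAFF receptor) and Ltbr. The lungs came from CC-LR mice on a C57BL/6 background, which carry a Cre recombinase at the club cell secretory protein locus and an LSL-K-ras G12D allele, so that mutant K-ras is switched on in lung epithelium and tumors form without further induction. All mice of both groups carried both alleles and were 14 weeks old. The 4 treated mice had received the STAT3 inhibitor TTI-101 for 4 weeks, the 4 control mice had not, and each mouse gave 1 poly(A) RNA library. The sources used here do not give the route of TTI-101 or the vehicle for these mice, and mice of both sexes were used in the study.

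BAFF and APRIL are ligands of the tumor necrosis factor family that keep mature B cells and plasma cells alive. BAFF binds the BAFF receptor, TACI and BCMA, whereas APRIL binds TACI and BCMA. Lymphotoxin alpha and lymphotoxin beta, made mainly by lymphocytes, join into a membrane trimer that engages the lymphotoxin beta receptor on stromal, epithelial and myeloid cells. The BAFF receptor and the lymphotoxin beta receptor both signal through the non-canonical NF-κB route of NIK and RelB, and the latter drives the chemokines that arrange B cell follicles in lymphoid tissue.

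Of the 7 genes, Tnfrsf13c and Ltb were higher in every TTI-101-treated library than in every control library. The same held for 1.53% of all genes tested. Tnfrsf13b was also higher on average, with 1 treated library inside the control range. For the genes of BAFF and APRIL the groups overlapped, and the 95% intervals of their log2 fold changes reached both signs. Ltbr had nearly the same mean in both groups. No difference passed Benjamini-Hochberg adjustment over the 17138 genes tested.

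Lta and Ltb lie in one cluster on chromosome 17 of GRCm38, Ltb on the forward strand at 35194439 to 35196320 and Lta on the reverse strand at 35203165 to 35205351, with Tnf between them. The sequences before their start sites are shown because Ltb was 1 of the 2 genes whose groups did not overlap, and because Lta encodes the other subunit of the same trimer. RefSeq promoters on GRCm38.p6 were found for all 7 genes, and the 250 bases before each start were searched on both strands for the κB motif, bound by the NF-κB factors named above, and for TTCNNNGAA, bound by STAT proteins, the family of the drug's target. The κB motif was present in 7.25% and the STAT motif in 7.02% of 32851 promoters of this length. Among the 7 genes, a κB match occurred only before Ltb and STAT matches only before Ltb and Lta. The κB match before Ltb is written on the opposite strand to the usual letters. Each window runs 5′ to 3′ on the strand of its gene, with the matched bases in capitals. Distances are counted back from the RefSeq start of each gene. For Ltb this start lies inside the gene coordinates given above, so its distances are not counted from base 35194439.

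Ltb, κB motif, bases 87 to 78 before the start, chr17:35194411-35194438, forward strand: agggtgttcGGAAAGTCCCcgggcaggg
Ltb, STAT motif, bases 172 to 164 before the start, chr17:35194326-35194352, forward strand: cttccccagTTCAGAGAAcccaggcat
Lta, STAT motif, bases 152 to 144 before the start, chr17:35205486-35205512, reverse strand: ccatcactcTTCAGGGAAccaggcttc
Lta, STAT motif, bases 16 to 8 before the start, chr17:35205352-35205376, reverse strand: cgactccctTTCCCAGAAcgcagta

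A match to these letters is a description of the sequence and does not show that a factor bound there. Tnfsf13b, Tnfsf13, Tnfrsf13b, Tnfrsf13c and Ltbr had neither motif in the window searched.

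The libraries held 16075855 to 26873509 counts, with overlapping depths in the groups, and levels are given as CPM, the counts of a gene relative to the TMM-scaled total of its library. Lung transcripts defined the tissue, with Sftpc, the surfactant protein C gene of alveolar type 2 cells, at 29922 ± 7515 CPM in control and 22755 ± 8696 CPM in treated lungs (SD, n = 4 per group). Control mouse 4 stood apart from the other 7 libraries, at 101 on the first principal component against -39.3 to 17.9. Its share of mitochondrial counts was 5.56%, against 2.01% to 2.85% in the others. It also had the lowest B cell and T cell scores of all libraries, where a score is the mean log2 CPM of a list of marker genes. Results are therefore also given without this mouse.

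Across all genes, edgeR's quasi-likelihood test called 0 of 17138 genes at an adjusted p under 0.05, a share of 0%, while 1132 passed an unadjusted p of 0.05. limma-voom likewise called 0 genes, and DESeq2 called 4, none of them among the 7. At an unadjusted p under 0.05, 3.02% of all genes tested were higher and 3.58% lower in treated lungs. By the same threshold, 3 of the 7 genes of the axis were higher (Tnfrsf13c, Ltb and Tnfrsf13b) and 0 were lower. The groups did not overlap, with treated libraries higher, for 1.53% of all genes and for 2 of the 7, and with treated libraries lower for 1.43% of all genes and for 0 of the 7. The median log2 fold change was 0.71 over the 7 genes and 0.003 over all genes tested. These 7 genes were put together with earlier results of these mice in view, so the counts describe them and are not a test of the axis. The p-values measure the spread between 4 mice per group.

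**Figure D1:**
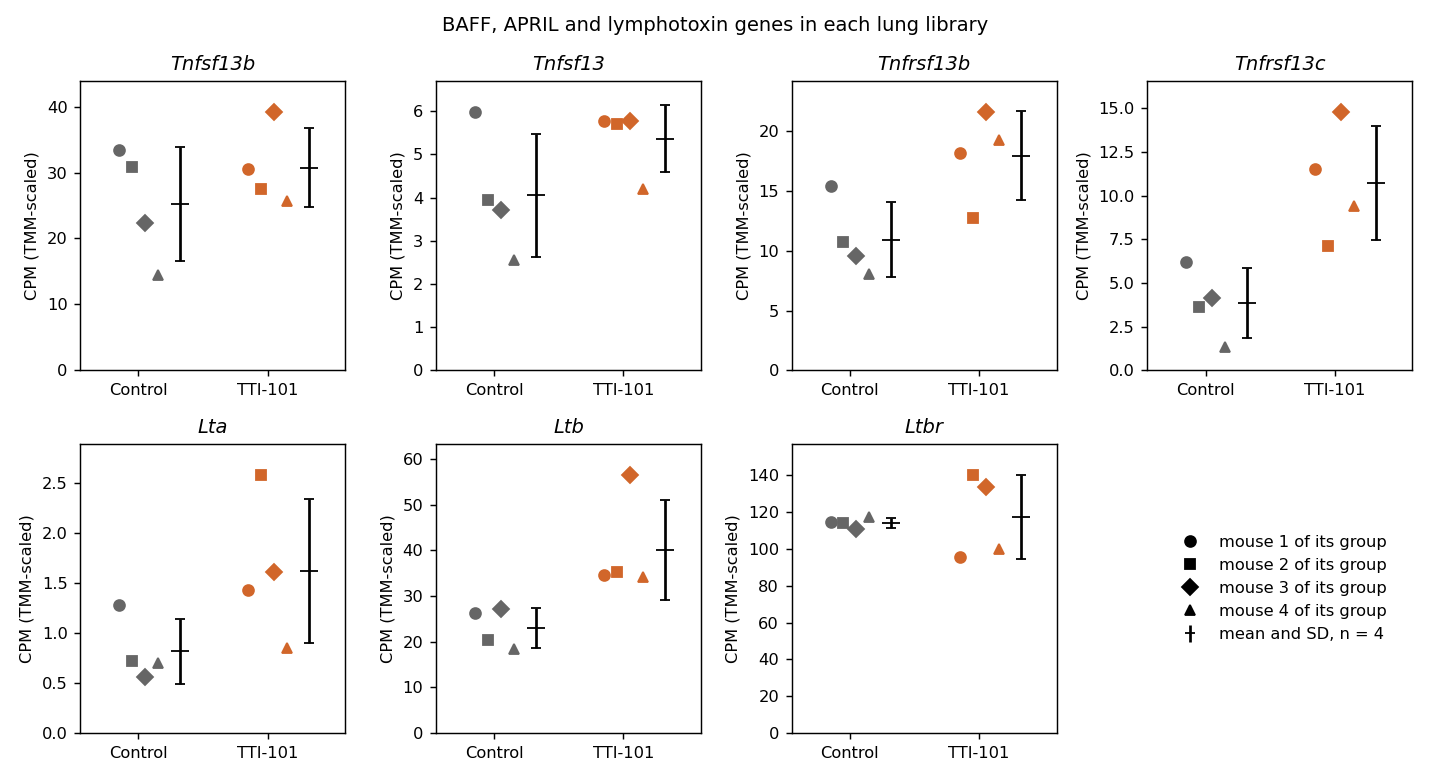
CPM of each gene in each library, on linear axes from 0 that differ between panels; points are single mice and the bars give the mean and SD of 4 mice. Control and TTI-101 points are separate for Tnfrsf13c and Ltb and overlap for the other genes.

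The BAFF receptor showed the largest fold difference of the 7 genes. Tnfrsf13c (ENSMUSG00000068105, chromosome 15, 82221743 to 82224369, reverse strand) encodes the receptor that passes the BAFF survival signal to mature B cells. It stood at 6.20, 3.65, 4.16 and 1.34 CPM in control mice 1 to 4, and at 11.5, 7.09, 14.8 and 9.43 CPM in TTI-101-treated mice 1 to 4. All treated values exceeded all control values, the closest being treated mouse 2 and control mouse 1. Group averages were 3.84 ± 2.00 and 10.7 ± 3.27 CPM (SD, n = 4 per group), which is 2.76-fold higher with treatment (log2 fold change 1.47 ± 0.40, standard error; unadjusted p = 0.00436, adjusted p = 0.657, edgeR). An exact permutation test of the log2 CPM values gave a two-sided p = 0.0286, the smallest that 4 against 4 mice can give. The controls held 21 to 169 counts and the treated libraries 118 to 306. Without control mouse 4, which had the fewest counts, the log2 fold change was 1.20 (unadjusted p = 0.00266, edgeR).

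TACI is the receptor shared by BAFF and APRIL, and it restrains B cell expansion and takes part in class switching. Tnfrsf13b (ENSMUSG00000010142, chromosome 11, 61126755 to 61149372, forward strand) was at 15.4, 10.7, 9.60 and 8.06 CPM in control mice 1 to 4. The treated mice 1 to 4 had 18.2, 12.8, 21.6 and 19.3 CPM. Treated mouse 2 fell below control mouse 1, and the other treated mice were above every control. Averages were 10.9 ± 3.17 CPM in control and 18.0 ± 3.74 CPM with TTI-101 (SD, n = 4 per group), 1.64-fold higher with treatment (log2 0.71, standard error 0.24; unadjusted p = 0.0142, adjusted p = 0.657, edgeR). The exact permutation test gave p = 0.0571 on log2 CPM, and the log2 fold change was 0.60 without control mouse 4.

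Of the ligands, Tnfsf13b (ENSMUSG00000031497, chromosome 8, 10006467 to 10039072, forward strand) encodes BAFF, which comes largely from myeloid and stromal cells. It was at 33.5, 30.8, 22.4 and 14.4 CPM in control mice 1 to 4 and at 30.5, 27.6, 39.2 and 25.7 CPM in treated mice 1 to 4. Only treated mouse 3 exceeded every control, and 3 treated mice lay among the controls. The log2 fold change of 0.28 was about as large as its standard error of 0.26, with a 95% interval of -0.35 to 0.91 (unadjusted p = 0.298, adjusted p = 0.745, edgeR; exact permutation p = 0.371). Without control mouse 4, the lowest library, it was 0.10.

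Tnfsf13 (ENSMUSG00000089669, chromosome 11, 69682846 to 69685784, reverse strand) encodes APRIL, which sustains plasma cells. Its control values were 5.98, 3.95, 3.72 and 2.56 CPM and its treated values 5.77, 5.70, 5.78 and 4.20 CPM, so no treated mouse exceeded control mouse 1. Its log2 fold change stood at 0.40 with a standard error of 0.29 and a 95% interval of -0.31 to 1.10 (unadjusted p = 0.196, adjusted p = 0.692, edgeR; exact permutation p = 0.143). Without control mouse 4 it was 0.24 (unadjusted p = 0.375, edgeR), and without control mouse 1 it was 0.65 (unadjusted p = 0.0431, edgeR). Of its exonic bases, 60.0% are shared on the same strand with Tnfsfm13, which joins exons of the neighboring Tnfsf12 gene to those of APRIL, and 13.5% overlap Tnfsf13os on the opposite strand, so its reads are divided among annotated genes in a way the files do not state. Tnfsfm13 had 42 to 106 counts in control and 71 to 97 in treated libraries. When the counts of both genes were summed, an alternative added after the data had been seen, the log2 fold change was 0.23 (unadjusted p = 0.331, edgeR). The other 6 genes share no exonic base with another gene in GENCODE M21.

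Lymphotoxin beta was the second gene whose groups were separate. Ltb (ENSMUSG00000024399) anchors the lymphotoxin trimer in the lymphocyte membrane. Control mice 1 to 4 had 26.2, 20.4, 27.2 and 18.3 CPM. Treated mice 1 to 4 had 34.5, 35.2, 56.5 and 34.2 CPM. Treated mice 1, 2 and 4 lay close together, and mouse 3 was far above them. With averages of 23.0 ± 4.34 and 40.1 ± 10.9 CPM (SD, n = 4 per group), Ltb was 1.74-fold higher with treatment (log2 fold change 0.80 ± 0.21, standard error; unadjusted p = 0.00332, adjusted p = 0.657, edgeR; exact permutation p = 0.0286). The log2 fold change was 0.71 without control mouse 4 and 0.59 without treated mouse 3, and the unadjusted edgeR p stayed at or under 0.0107 with any 1 mouse left out.

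Lta (ENSMUSG00000024402) encodes the partner subunit, which also forms a soluble trimer. It was the scarcest of the 7 genes, with 35, 12, 10 and 11 counts in control mice 1 to 4 and 38, 43, 29 and 14 counts in treated mice 1 to 4. In CPM these were 1.28, 0.717, 0.555 and 0.704 against 1.43, 2.58, 1.61 and 0.851. Treated mouse 4 lay below control mouse 1 and the other treated mice above every control. Its log2 fold change came to 0.96 ± 0.44 (standard error; unadjusted p = 0.0513, adjusted p = 0.657, edgeR; exact permutation p = 0.0571). The unadjusted edgeR p was 0.0221 without control mouse 1 and 0.0239 without treated mouse 4. It was 0.0871 without control mouse 4, at a log2 fold change of 0.90. DESeq2's Wald test gave an unadjusted p = 0.0470. The log2 fold change was 0.66 without treated mouse 2, the highest library, whose B cell and T cell scores were the lowest of the treated group.

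Ltbr (ENSMUSG00000030339, chromosome 6, 125306571 to 125313885, reverse strand), the receptor of the lymphotoxin trimer and of LIGHT, differed least. The control mice were tightly grouped at 115, 114, 111 and 117 CPM, while the treated mice were spread over 95.9, 140, 133 and 99.7 CPM, with 2 above and 2 below every control. The log2 fold change amounted to 0.04 ± 0.15 (standard error; 95% interval -0.33 to 0.41, unadjusted p = 0.807, adjusted p = 0.953, edgeR; exact permutation p = 0.857). Its sign turned to -0.049 without treated mouse 2 and to -0.03 without treated mouse 3.

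Levels were compared between genes as CPM per kilobase of gene length. Ltbr was the most abundant, with a median over 8 libraries of 48.6 and a range of 40.7 to 59.6, and Ltb followed at 20.3 with a range of 12.1 to 37.3. Ltbr exceeded Ltb in 8 of 8 libraries, and Ltb exceeded the next gene, Tnfrsf13b, in 8 of 8. The medians of Tnfrsf13b, Tnfsf13b, Tnfrsf13c and Tnfsf13 were 4.97, 4.23, 3.24 and 3.02, and the order of these genes differed between groups. Tnfrsf13c lay below both Tnfsf13b and Tnfsf13 in all 4 controls, and above each of them in 3 of 4 treated mice. Its mean was 1.87 ± 0.974 CPM per kilobase in control and 5.23 ± 1.597 in treated lungs, next to 2.47 ± 0.869 and 3.28 ± 0.475 for Tnfsf13 (SD, n = 4 per group). Over all libraries, Tnfrsf13b was above Tnfsf13b in 7 of 8, Tnfsf13b above Tnfrsf13c in 5 of 8, and Tnfrsf13c above Tnfsf13 in 3 of 8. Lta was last at 0.772, below Tnfsf13 in 8 of 8 libraries. All values of Tnfsf13 here use its full length, although 60.0% of its exonic bases are shared with Tnfsfm13. How reads over the shared bases were counted is not known, so the place of Tnfsf13 in this order, also against Tnfrsf13c, is uncertain. BCMA, the plasma cell receptor of both ligands encoded by Tnfrsf17, had 0 to 18 counts in control and 2 to 11 in treated libraries, too few to test.

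The BAFF receptors and the lymphotoxins are carried by lymphocytes, and transcripts of lymphocytes were also higher in the treated lungs. In bulk tissue, more cells of a type and more RNA per cell cannot be told apart. Of 19 B cell genes tested, 18 were higher in treated lungs and 17 of these had an unadjusted p under 0.05 (median log2 fold change 1.16), of which 3, Cd37, Cd79a and Blnk, had groups that did not overlap. The exception in direction was Vpreb3, named after its values were seen, at -0.39 (unadjusted p = 0.246, edgeR). The summed level of the list was 232 to 649 CPM in control and 546 to 1106 CPM in treated libraries, and none was at 0 in all libraries. Among the lowest p-values were those of Blk (log2 fold change 1.03), Cd79a (1.32) and Cd79b (1.06), which encode a signaling kinase and surface proteins of B cells, and Ighd, the IgD heavy chain of naive B cells, had the highest CPM before any scaling for length (1.15). All 15 T cell genes were higher (median 0.71), but 0 had an unadjusted p under 0.05, and Thy1, with the highest CPM, had a log2 fold change of 0.36. Their summed level was 62.8 to 197 CPM in control and 128 to 220 CPM in treated libraries.

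Red blood cell genes were higher as well, with 4 of 5 tested at an unadjusted p under 0.05 and a median log2 fold change of 2.50. These were the hemoglobin genes Hbb-bs (2.46), Hbb-bt (2.66) and Hba-a1 (2.50) and the heme synthesis gene Alas2 (2.87). The list summed to 58.5 to 264 CPM in control and 205 to 1587 CPM in treated libraries. The part of these transcripts in the levels of the 7 genes was not tested. The study's methods describe a saline perfusion of lungs frozen for RNA after lavage. They describe no other frozen lungs and refer to the same RNA extraction for sequencing, but do not name the sequenced mice. Among 20 myeloid genes, which mark cells that produce BAFF and APRIL, 0 had an unadjusted p under 0.05 (median 0.14), with Lyz2, the macrophage lysozyme gene, having the highest CPM and a log2 fold change of -0.32. Among 20 epithelial, stromal and endothelial genes, 13 were higher and 7 lower (median log2 fold change 0.29), and the 5 with an unadjusted p under 0.05 were all lower and all epithelial. Their list summed to 53312 to 91983 CPM in control and 40924 to 72156 CPM in treated libraries, and its part in the levels of the 7 genes was not tested.

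**Figure D2:**
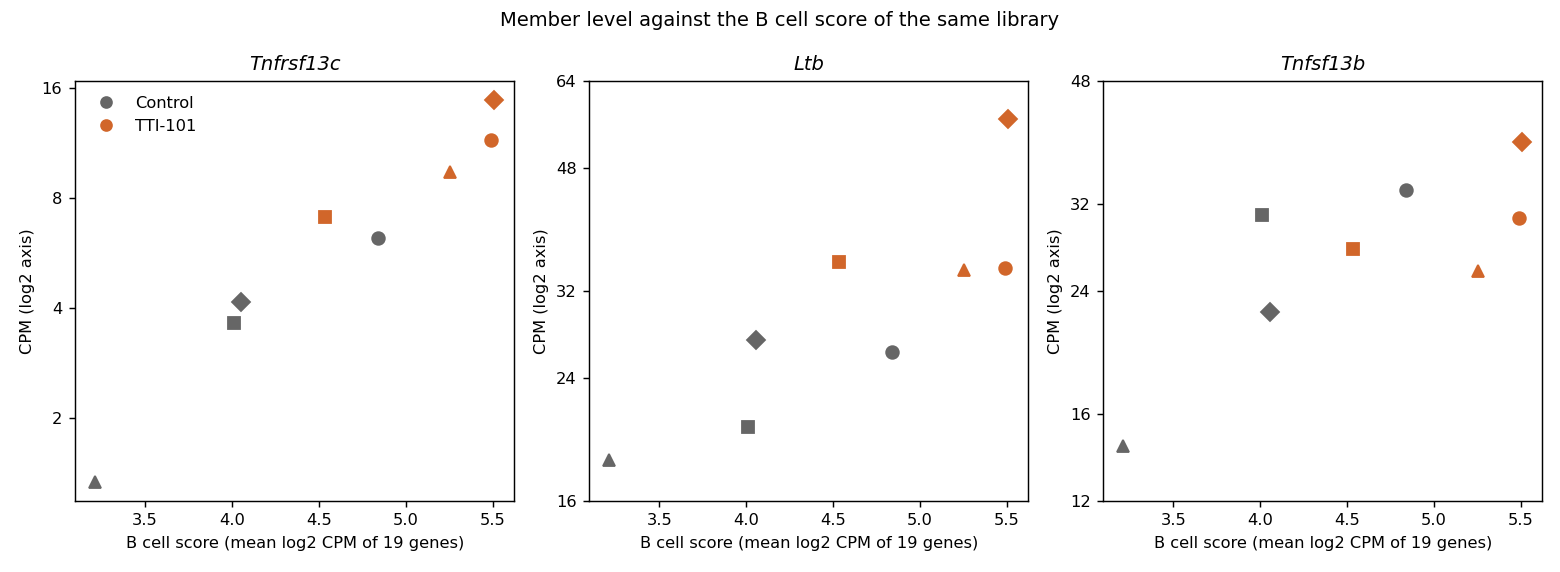
CPM on a log2 axis against the B cell score of the same library for Tnfrsf13c, Ltb and Tnfsf13b; each point is 1 mouse, in gray for control and orange for TTI-101, with a circle, square, diamond or triangle for mouse 1, 2, 3 or 4 of its group. Control mouse 4 is the lowest point in each panel, and Tnfrsf13c runs with the score across both groups.

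To compare the genes with their carrier cells, the log2 CPM of each was set against the mean log2 CPM of the matching list within each library, a measure in which a change shared with the list cancels. Relative to the 19 B cell genes, Tnfrsf13c was at -2.23 ± 0.31 in control and -1.81 ± 0.19 in treated lungs (SD, n = 4 per group), a difference of 0.42 in which only treated mouse 4 lay within the control range (exact permutation p = 0.0571). With the median of the B cell genes in place of their mean, the difference was 0.26 (exact permutation p = 0.543). Tnfrsf13b had the opposite sign on this measure, with -0.60 ± 0.31 in control and -1.05 ± 0.19 in treated lungs, a difference of -0.44 in which only treated mouse 2 lay within the control range (exact permutation p = 0.0571). Without control mouse 4, these differences were 0.27 and -0.30.

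The receptors were then compared with each other, a comparison added after their values had been seen. The log2 difference of Tnfrsf13c over Tnfrsf13b was -1.30, -1.53, -1.19 and -2.50 in control mice 1 to 4 and -0.65, -0.84, -0.55 and -1.02 in treated mice 1 to 4. Every treated mouse was above every control, with a difference of 0.86 (exact permutation p = 0.0286). Leaving out control mouse 4 gave 0.57, and the exact permutation p was then 0.0571, as it was without any 1 of the treated mice. The BAFF ligand was set against its receptor in the same way. The log2 CPM of Tnfsf13b minus that of Tnfrsf13c, with no scaling for the different lengths of the genes, was 2.41, 3.05, 2.40 and 3.33 in control mice 1 to 4 and 1.39, 1.94, 1.40 and 1.44 in treated mice 1 to 4. The size of these values therefore does not say which gene was more abundant, and only their difference between groups is read. All treated mice lay below all controls, a difference of -1.25 (exact permutation p = 0.0286) that was -1.08 without control mouse 4. By edgeR, the log2 fold change was 1.47 for Tnfrsf13c and 0.28 for Tnfsf13b, so this difference largely restates that of Tnfrsf13c.

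For the other genes, the groups overlapped on this measure. Relative to the 34 B cell and T cell genes, the difference between groups was -0.22 for Ltb (exact permutation p = 0.571) and -0.13 for Lta (p = 0.743 by the same exact test). Relative to the 20 myeloid genes, it was 0.15 for Tnfsf13b (exact permutation p = 0.571) and 0.26 for Tnfsf13 (exact permutation p = 0.429). Relative to 20 epithelial, stromal and endothelial genes, it was -0.09 for Ltbr (exact permutation p = 0.6). Over all 9 of these within-library comparisons, the smallest Benjamini-Hochberg adjusted exact permutation p was 0.129.

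**Figure D3:**
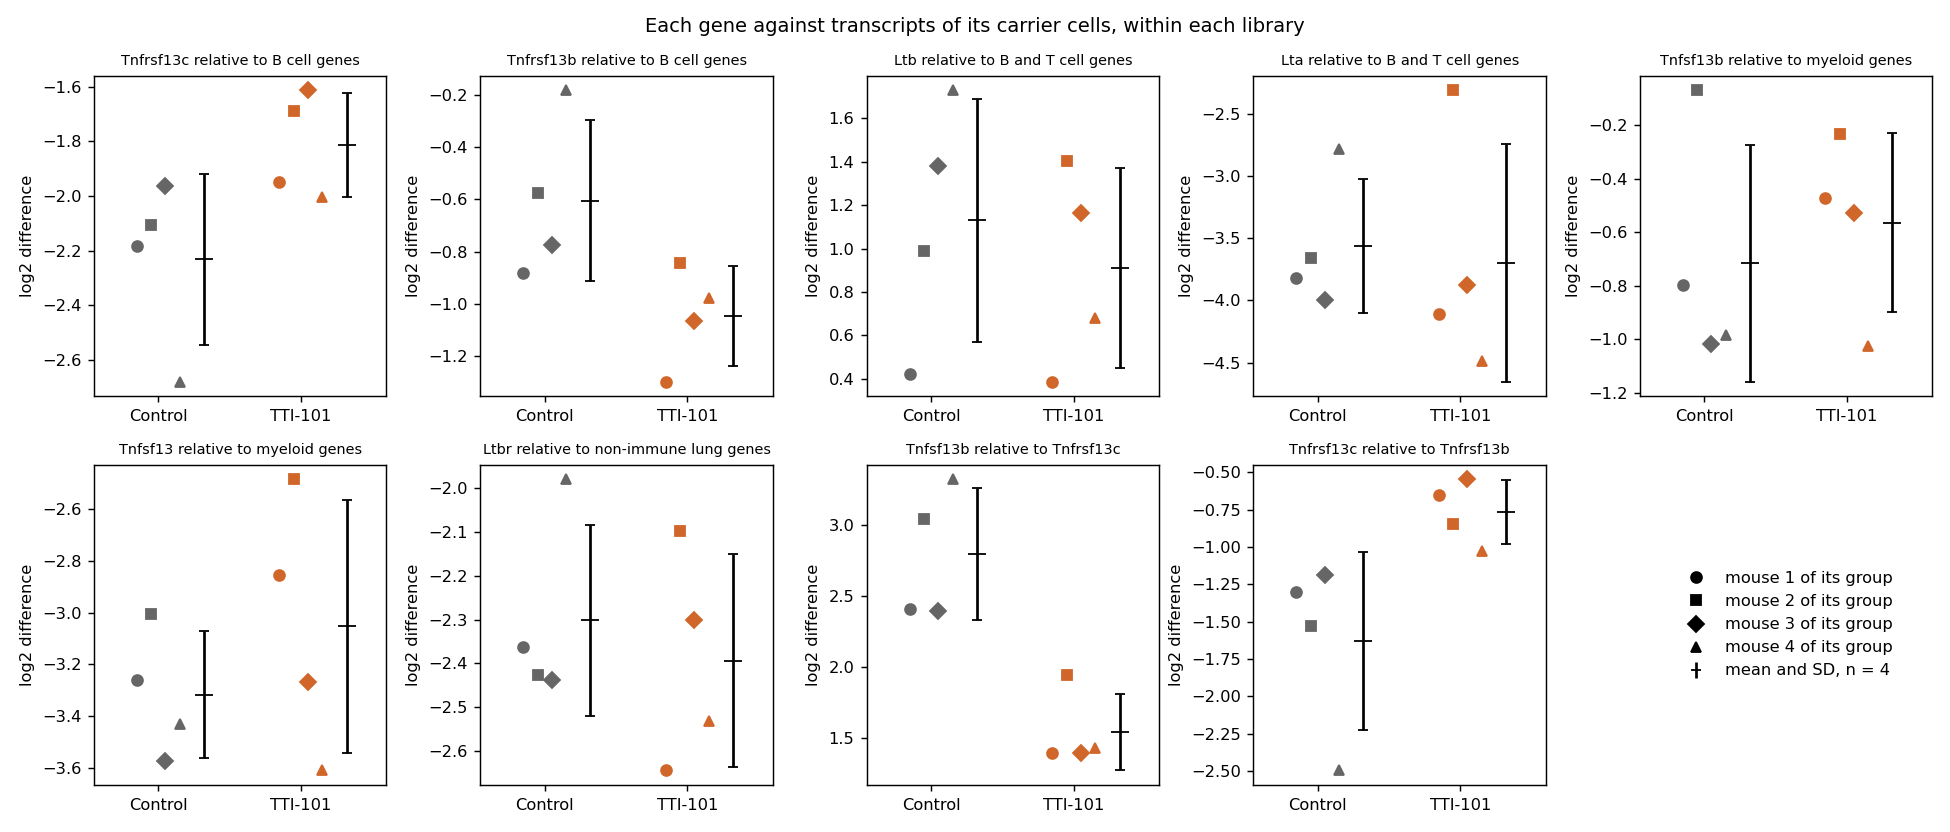
Log2 CPM of each gene minus the mean log2 CPM of its comparison list, or of a second gene, in each library, on axes that differ between panels and do not start at 0; points are mice and bars give mean and SD of 4. The groups are separate for Tnfsf13b relative to Tnfrsf13c and for Tnfrsf13c relative to Tnfrsf13b, and overlap in the other panels.

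In a further fit chosen after seeing the data, the B cell score of each library was a covariate in edgeR. The log2 fold change was then 0.26 for Tnfrsf13c (standard error 0.33), 0.02 for Tnfrsf13b (0.24), 0.41 for Ltb (0.28) and 0.92 for Lta (0.60), and 0 of the 7 genes had an unadjusted p under 0.05 by edgeR, as against 2.62% of all genes tested in that fit. The score itself was 4.03 ± 0.66 in control and 5.20 ± 0.46 in treated lungs (SD, n = 4 per group), so it is in part the same contrast as the treatment.

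Ligands and receptors next to the axis moved in both directions. Of 14 tested, 8 were higher and 6 lower, with a median log2 fold change of 0.13. Btla, an inhibitory lymphocyte receptor that binds the LIGHT receptor HVEM, was higher (log2 fold change 0.95, unadjusted p = 0.0326, edgeR) and Tnfrsf11a, which encodes RANK, was lower (log2 fold change -0.61, unadjusted p = 0.0172, edgeR). Tnfrsf11a ranged from 11.3 to 20.8 CPM in control and from 8.94 to 11.1 CPM in treated mice, so that all treated lay below all controls. The proteoglycan gene Sdc1, whose product can bind APRIL, had the highest CPM of the list and a log2 fold change of -0.55 (unadjusted p = 0.0555, edgeR). Tnf, which lies between Ltb and Lta, had 20 to 35 counts in control and 12 to 22 in treated libraries and a log2 fold change of -0.70 (unadjusted p = 0.112, edgeR).

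The signaling relay below the receptors showed small differences. Of 19 genes of the NF-κB route tested, 13 were higher and 6 lower, with a median log2 fold change of 0.14 and a range of -0.34 to 0.39. Chuk, which encodes the kinase IKKα of the non-canonical route, was the only one with an unadjusted p under 0.05 and was lower in treated lungs (log2 fold change -0.34, unadjusted p = 0.0481, edgeR). Map3k14, the gene of NIK, had a log2 fold change of 0.16, Nfkb2 one of 0.17 and Relb one of 0.14. Nfkb1, with the highest CPM of this list before any scaling for length, had a log2 fold change of 0.16.

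Among chemokines, adhesion molecules and homing receptors tied to lymphotoxin signaling, 3 of 11 genes tested had an unadjusted p under 0.05, all higher. They included Cxcr5, which leads B cells to follicles (log2 fold change 1.54, unadjusted p = 0.00308, edgeR), and Ccr7, which leads lymphocytes to lymph nodes (1.21, unadjusted p = 0.00839, edgeR). The groups overlapped for both, with 3 of 4 treated mice above every control. The adhesion molecule gene Icam1, with the highest CPM of the list, had a log2 fold change of 0.45 (unadjusted p = 0.0755, edgeR).

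The stromal chemokines that follow lymphotoxin receptor signaling gave other values. Cxcl13, the ligand of Cxcr5, was at 10.7, 6.81, 8.82 and 8.63 CPM in control and at 4.30, 14.6, 6.84 and 3.41 CPM in treated mice 1 to 4. Its treated values reached both above and below the controls (log2 fold change -0.27, unadjusted p = 0.525, edgeR). The Ccr7 ligand gene Ccl21a was tested at a copy on the scaffold JH584294.1 whose near-identical relatives could share reads. This copy had control values of 3.71 to 38.0 CPM and treated values of 3.05 to 17.6 CPM. An entry of the same name on chromosome 4 had at most 10 counts in any library, too few to test. Ccl19 had 0 counts in all control libraries and 15, 0, 2 and 1 counts in treated mice 1 to 4, and the vessel addressin gene Madcam1 had at most 2 counts in any library.

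**Figure D4:**
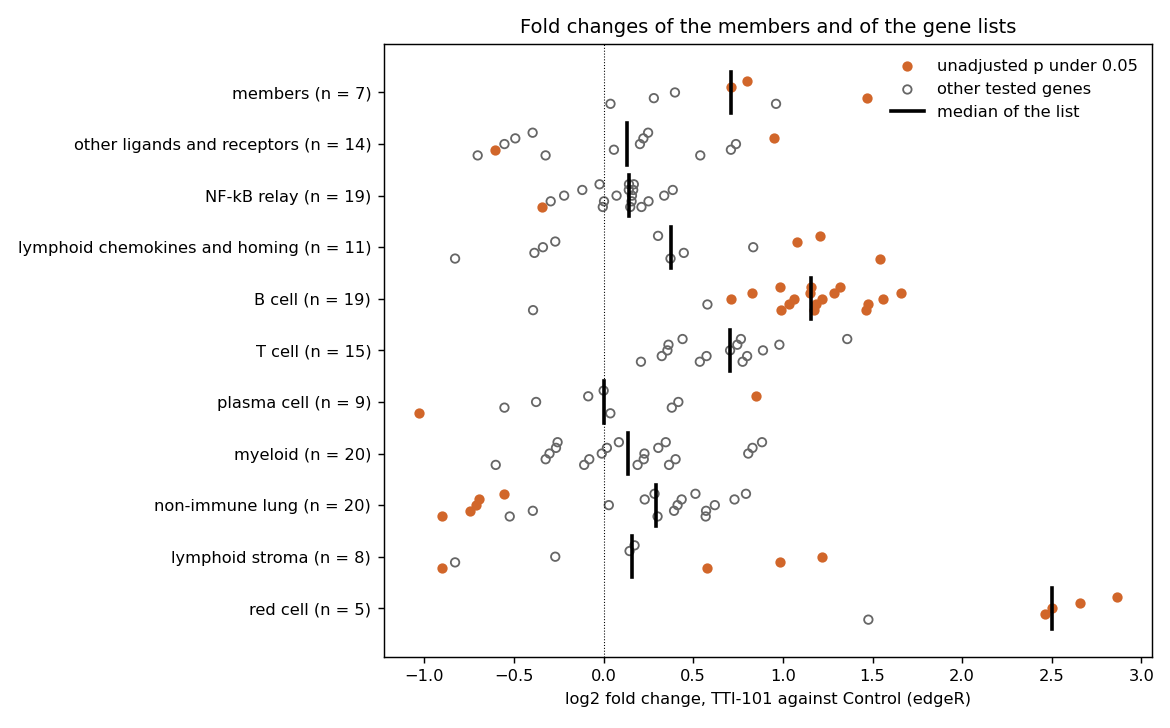
Log2 fold change of TTI-101 against control from edgeR for each tested gene, 1 row per list; filled points have an unadjusted p under 0.05, open points do not, and the vertical bars are list medians. The B cell genes have a median of 1.16 with 1 gene at -0.39, the 7 genes of the axis, labeled members, lie between 0.04 and 1.47, and the NF-κB relay between -0.34 and 0.39.

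The genes whose levels followed each member most closely were sought after the mean of each group had been removed, among 14416 genes with a mean log2 CPM of at least 1. Over 8 libraries that share their scaling, Tnfrsf13c was closest to Cd79a (Pearson's r = 0.994), Cd37 (0.993) and Sept1 (0.987), of which Cd79a and Cd37 were also in the B cell list. Tnfrsf13b was closest to Pip4k2b (0.990), Wnt2 (0.989) and Cxcr5 (0.989). Tnfsf13b was closest to Slc24a3 (0.987), Bsdc1 (0.986) and Efnb1 (0.982), and Tnfsf13 to Iglv1 (0.972), Zfp951 (0.964) and Stard3 (0.963). Ltb was closest to Fance (0.983), Atf6b (0.978) and Tubg2 (0.967), and Ltbr to Uap1l1 (0.982), Zbtb17 (0.976) and Asna1 (0.973). Lta was closest to 4930579G24Rik (0.949), Tldc1 (0.946) and 1810032O08Rik (0.941). With 8 libraries and this many genes, values this high describe the libraries and carry no test. Between members, the same measure ran from -0.26 for Tnfrsf13b and Ltbr to 0.89 for Tnfsf13b and Tnfrsf13c. It was 0.85 for Tnfrsf13b and Tnfrsf13c. Other pairs were close to these, with 0.86 for Tnfsf13b and Tnfsf13, 0.81 for Tnfsf13 and Tnfrsf13c and 0.75 for Tnfsf13b and Tnfrsf13b. The measure was 0.17 for Lta and Ltb, 0.64 for Lta and Ltbr and 0.35 for Ltb and Ltbr. Control mouse 4 is part of every value, and none is given without it.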

How the data were processed

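Lung RNA was extracted from cryopreserved tissue and made into TruSeq Stranded mRNA libraries, and the sequencing provider ran its own pipeline. The submitters' processing notes name STAR, DESeq2 and mm10. The counting tool and its strand setting are not given in the sources used here. The authors deposited whole-number counts per Ensembl gene with no normalization. From these counts, edgeR 4.0.16 in R 4.3.3 compared the groups with robust quasi-likelihood F-tests after filterByExpr (minimum count 10) and TMM scaling, with Benjamini-Hochberg adjustment over 17138 genes, and standard errors were taken from the F statistic. The 95% intervals use a t quantile with 6 degrees of freedom. Log2 CPM used a prior count of 2. Single values were compared by two-sided exact permutation tests over 70 assignments. limma 3.58.1 and DESeq2 1.42.0 were alternatives. The fits were also run on simulated counts with less spread between libraries than was estimated here. That run therefore does not show how the fits perform on these mice. The genes and lists were chosen with earlier results of these data known. From each list, the text names up to 4 genes with an unadjusted p under 0.05 and the gene with the highest mean CPM, except for items not reported here. Other genes are named for their role or level, after their values were seen. Gene names were read from the deposited table, whose coordinates for the 7 genes are those of GENCODE M21, and the promoters are those of RefSeq.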

Additional observations from a re-analysis of the deposited data

Results flagged for a closer look

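Within each set of 4 mice, the distance from the outermost value to the next one was taken as a share of the full range, for the 7 genes, the 9 within-library comparisons, 10 list scores, total counts and mitochondrial share. Of 56 such groups, 7 exceeded Dixon's critical value of 0.829, where chance gives about 1 in 20, or 2.8. Many groups share values, as genes and list scores recur in the within-library comparisons, so this count is not a test of an excess. For Ltb, the gap of TTI-101-treated mouse 3 was 0.955 of the range, at 56.5 CPM against 34.2 to 35.2 in the other treated mice. For Tnfsf13, TTI-101-treated mouse 4 had a gap of 0.951, at 4.20 CPM against 5.70 to 5.78. For Tnfsf13b relative to Tnfrsf13c, TTI-101-treated mouse 2 had a gap of 0.926, at 1.94 against 1.39 to 1.44, and was the treated mouse nearest to the controls.

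Control mouse 4 accounted for 3 of the 7. Its gap was 0.867 for the mitochondrial share, 0.857 for the score of non-immune lung genes, at 8.86 against 9.20 to 9.26, and 0.833 for Ltbr relative to those genes, at -1.98 against -2.44 to -2.36. The last comparison had a difference between groups of 0.015 without this mouse. For total counts, the gap of control mouse 1 was 0.830, at 26873509 against at most 18220467.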

How the results depend on the processing

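Leaving out 1 mouse at a time, genes at an unadjusted p under 0.05 numbered 422 (without treated mouse 3) to 2498 (without treated mouse 2), with 2393 without control mouse 1, 531 without control mouse 4 and 711 without treated mouse 1, and genes at an adjusted p under 0.05 numbered 0 to 1, with 1 such gene without control mouse 1 or treated mouse 3. Of the 7 genes, 3 to 5 had an unadjusted edgeR p under 0.05, the 5 without control mouse 1, where 13.7% of all genes did. DESeq2's Wald test called 4 genes at an adjusted p under 0.05, and without a filter 1849 genes had an unadjusted p under 0.05. DESeq2's size factors, library totals, limma-voom and a minimum of 10 counts in every library kept the sign of all 7 log2 fold changes, but the unadjusted p of Lta was 0.0470 with DESeq2's Wald test, 0.0494 with its size factors, 0.0473 with library totals and 0.0363 with that minimum. With the B cell score as covariate, 0 of the 7 genes had an unadjusted p under 0.05, against 2.62% of all genes, and the log2 fold change was -0.35 for Tnfsf13b and -0.10 for Tnfsf13. That of Ltbr was -0.049 when treated mouse 2 was left out and -0.03 when treated mouse 3 was.

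Within libraries, the difference between groups with 1 mouse left out ranged from 0.27 to 0.51 for Tnfrsf13c and from -0.54 to -0.30 for Tnfrsf13b relative to B cell genes, from -0.59 to 0.13 for Lta relative to B and T cell genes, from -0.19 to 0.015 (without control mouse 4) for Ltbr relative to non-immune lung genes, and from 0.57 to 1.01 for Tnfrsf13c relative to Tnfrsf13b. For Lta it was 0.13 without control mouse 4 or treated mouse 4 and 0.0038 without treated mouse 1. The exact permutation p of Tnfrsf13c relative to B cell genes was 0.0286 without control mouse 3, and that of Tnfrsf13b 0.0286 without control mouse 1. With the median over the list, the difference was 0.26 for Tnfrsf13c (exact permutation p = 0.543), 0.08 for Tnfsf13b relative to myeloid genes and -0.22 for Ltbr. Deviations of mice with the same number correlated at 0.39, 0.08, 0.16 and 0.07, so the numbers were not taken as pairs. With the replicate number as a block, 1298 genes had an unadjusted edgeR p under 0.05, and the exact sign-flip test, which cannot go below 0.125, gave 0.125 for the differences of -1.25 and 0.86 between the genes of BAFF and its receptor and between both receptors. The cause of these shifts was not tested.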

Other observations

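Of 9 plasma cell genes tested, 5 were higher and 4 lower in treated lungs, with a median log2 fold change of 0.00. Irf4, a transcription factor of activated B cells and plasma cells, was higher (log2 fold change 0.85, unadjusted p = 0.0110, edgeR), and Derl3, which serves protein quality control in the endoplasmic reticulum, was lower (-1.03, unadjusted p = 0.0268, edgeR). Jchain, which links IgA and IgM multimers, had a log2 fold change of 0.04. Sdc1, with the highest CPM of this list, is also made by epithelium.

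Of 8 tested genes of lymphoid stroma, 3 were higher and 1 lower at an unadjusted p under 0.05 by edgeR. Those higher were Mfge8 (log2 fold change 0.58), in all 4 treated mice above every control, and Fcer2a (0.98) and Cr2 (1.22), which follicular dendritic cells share with B cells. Clu, with the highest CPM, was lower (-0.90). Over all genes tested, 3.02% were higher and 3.58% lower at that threshold, and this short list is not a test of lymphoid stroma. Ccl19, Madcam1 and Glycam1 of the same list had too few counts to test. Among 20 non-immune lung genes, 13 of which were higher and 7 lower, 5 were lower at that threshold, led by Krt18 (-0.90), Krt8 (-0.71), Cdh1 (-0.56) and Epcam (-0.70), which mark epithelium. Sftpc, with the highest CPM, had a log2 fold change of -0.40.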
